A study of Sus scrofa with 8 samples.

Results

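The genes described here are 9 components of type 2 cytokine signalling in pig skin, namely the receptor chains IL4R, IL13RA1, IL13RA2, IL31RA and CRLF2, the transcription factor STAT6, the chemokine CCL26 and the epithelial cytokines TSLP and IL25. They were taken by name from a list and not by their measured values, and make up 9 of the 31907 Ensembl genes counted. The symbol column of the deposited table named 7 of them. TSLP and CRLF2 had no symbol there and were found by their NCBI gene numbers. A further row, on chromosome Y, carries the CRLF2 description under another gene number and is given beside CRLF2.

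Yorkshire swine of wild-type genotype were sampled, pig 13 and pig 14. In each animal 2 skin sites received IL-15 intradermally, at 200 ng per site in a saline volume of 100 µl, and were biopsied whole 3 h later (sites 12c and 12e of pig 13, 12c and 12d of pig 14), and 2 sites were biopsied with no injection (6b and 7b of pig 13, 6b and 7e of pig 14). The labels used here give no ages. Uninjected skin was the only control, with no saline-injected site, and injected and control sites carry different numbers, so that IL-15, the injection itself and the position on the body cannot be told apart. Sites of one pig are not separate animals, and p-values measure the spread between sites of these 2 pigs.

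IL-4 and IL-13 are the defining cytokines of type 2 inflammation. IL-4 binds IL4R, which pairs with the common gamma chain IL2RG on blood cells or with IL13RA1 on epithelium and fibroblasts, and the second of these receptors also takes IL-13. Both receptors activate JAK kinases and STAT6, which switches on genes such as the eosinophil chemokine CCL26. TSLP (through CRLF2 and IL7R), IL-25 and IL-33 are released by epithelium and start the response, and IL-31 (through IL31RA and OSMR) is a cytokine of itch, and the whole axis is central to atopic dermatitis. IL-15 itself does not bind these receptors, but shares IL2RG and the kinases JAK1 and JAK3 with IL-4.

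Total counts ran from 28471089 to 36070107 per biopsy. Skin markers were present throughout: summed over the genes of each list, differentiated keratinocyte markers held 5885 to 24717 CPM (counts scaled to the size of each library, with TMM factors), basal keratinocyte markers 6758 to 21043 CPM and dermal fibroblast markers 19082 to 192066 CPM. Macrophage and dendritic cell markers summed to 242 to 631 CPM. The 4 mast cell markers in the table summed to 60.4 to 120 CPM and the 6 T cell markers to 7.46 to 42.5 CPM, with the T cell sum at 7.46 to 9.50 CPM in pig 13 and 19.9 to 42.5 CPM in pig 14. Of 5 eosinophil and basophil symbols, 2 had a gene in the table. EPX, a granule protein of eosinophils, had 0 to 7 counts, and IL5RA had 12 to 42. The pig 13 control from site 7b stood apart, with the highest sums of both keratinocyte lists and the lowest fibroblast sum. Its neutrophil list sum was also the highest (409 CPM, against 44.6 to 144 CPM in the other 7 biopsies). S100A8 (93.8 CPM), S100A9 (114), S100A12 (170) and CXCR2 (17.4) were highest there. CSF3R (6.8 CPM, others 5.65 to 9.16) and MMP25 (6.41 CPM, others 1.75 to 7.67) were not. For the members, values without site 7b are given where they differ in direction or call. In whole biopsies fewer cells of a type and less RNA per cell cannot be told apart.

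No member differed between injected and control sites in edgeR's quasi-likelihood test over all 8 biopsies. Of the 9 members, 8 had enough counts to be tested, and 0 of 8 were called at an adjusted p under 0.05, where 0.0352% of the 19862 genes tested were called (7 genes). DESeq2 called 0 members, with no adjusted p for TSLP, against 0.292% of all genes (58 genes). Log2 fold changes of the tested members ran from -0.87 for TSLP to 0.33 for IL13RA2, 4 above and 4 below 0, with a median of 0.06 beside -0.01 for all genes tested. TSLP alone had an unadjusted p under 0.05 (1 of 8, against 4.54% of all genes). The plot of CPM by biopsy shows how the values lie.

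**Figure D1:**
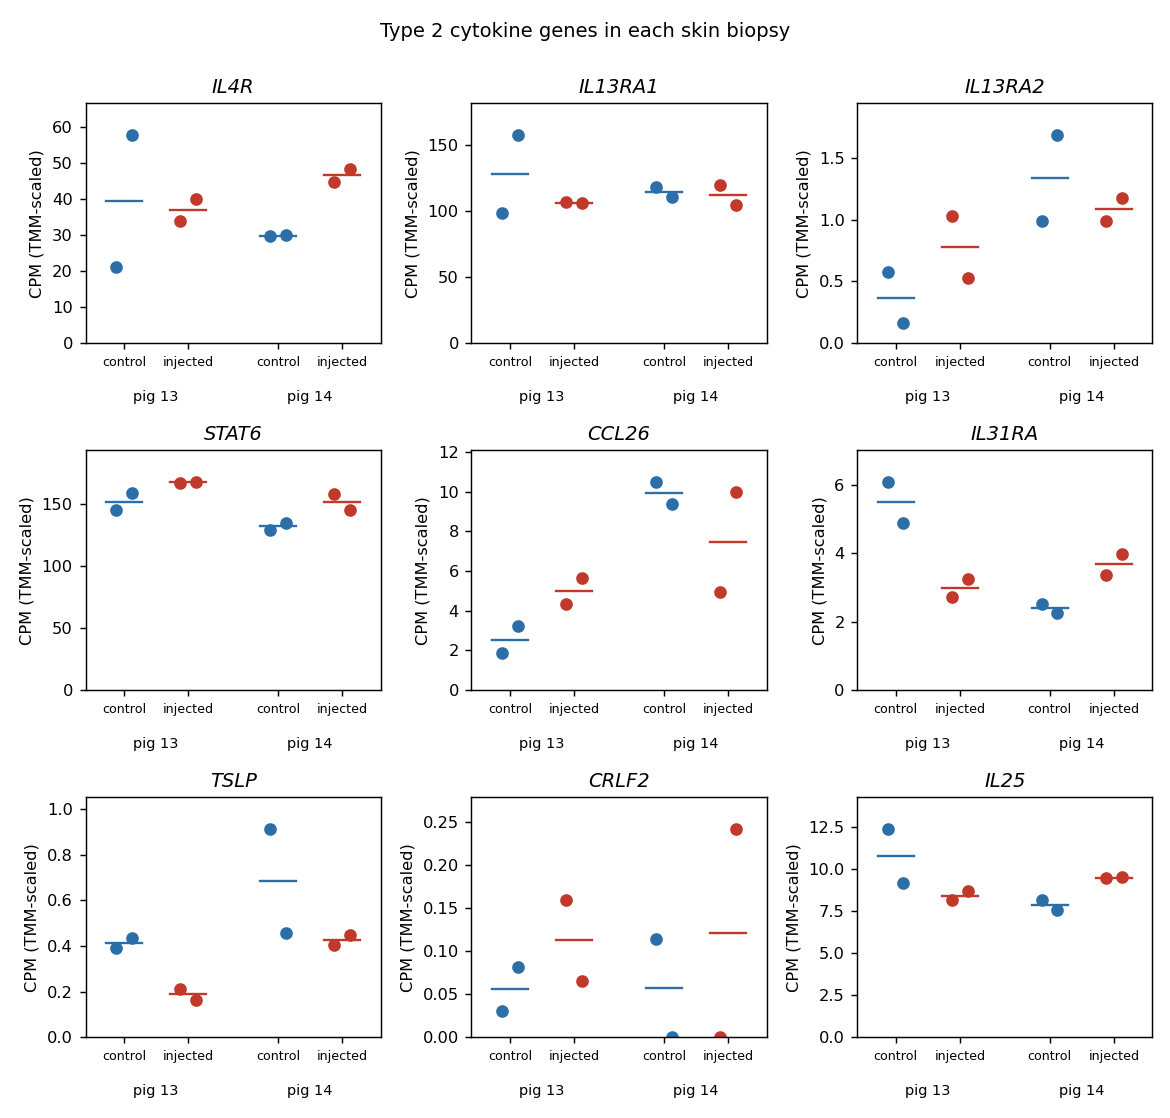
CPM of the 9 genes in each biopsy (points), with control sites in blue, injected sites in red, pigs side by side and the mean of each pair of sites as a line. IL4R in pig 14 is 44.8 and 48.4 CPM at injected and 29.7 and 30 CPM at control sites, IL31RA lies the opposite way round in the 2 pigs, and CRLF2 is near 0 in every biopsy.

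Set by level per length, with the exon lengths of the deposited files, STAT6 was the highest of the group and CRLF2 the lowest. RPKM (CPM per kilobase of exon) had medians over the 8 biopsies of 36.4 for STAT6, 25.6 for IL13RA1, 9.44 for IL25, 8.28 for CCL26, 7.24 for IL4R, 0.668 for IL13RA2, 0.446 for TSLP, 0.417 for IL31RA and 0.00862 for CRLF2. These fell into tiers that did not overlap: every value of IL13RA1 (23.3 to 37.4 RPKM) was above every value of IL25 (7.99 to 13.1), every IL4R value (4.13 to 11.3) above every IL13RA2 value (0.110 to 1.14), and every IL31RA value (0.284 to 0.768) above every CRLF2 value (0 to 0.0283). Within tiers the neighbours overlapped. STAT6 (30.9 to 40.3 RPKM) was above IL13RA1 within each of the 8 biopsies although their ranges cross, while IL25, CCL26 and IL4R, and likewise IL13RA2, TSLP and IL31RA, were not apart beyond their spread.

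**Figure D2:**
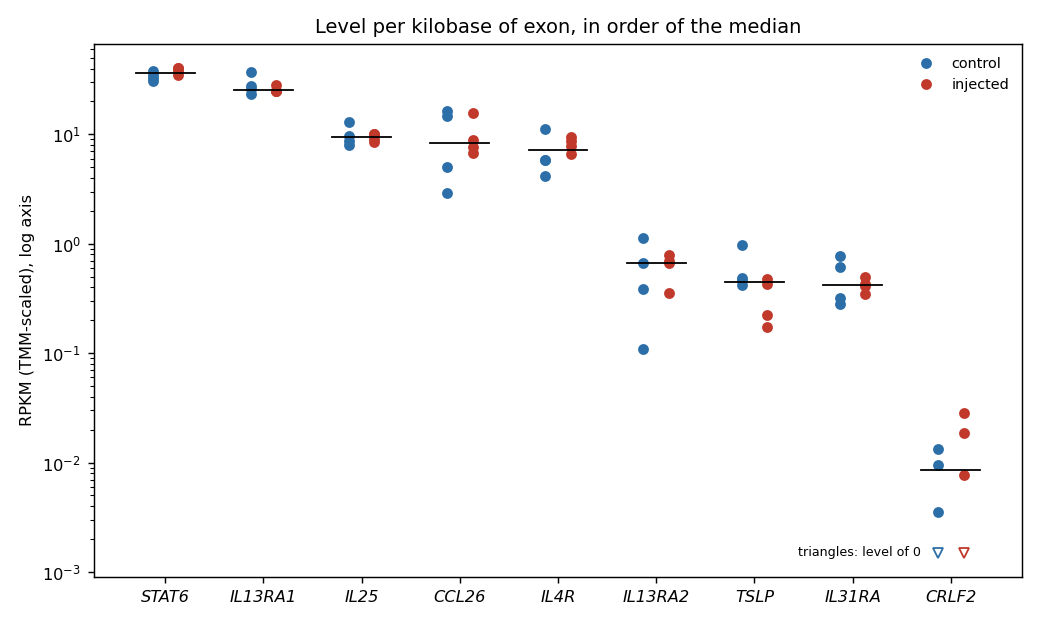
RPKM of each gene on a log axis, 1 point per biopsy, control in blue and injected in red, with the median over 8 biopsies as a black line and open triangles for a level of 0. STAT6 and IL13RA1 form the upper tier (23.3 to 40.3 RPKM), IL25, CCL26 and IL4R the middle one (2.93 to 16.4 RPKM), and CRLF2 lies at 0 to 0.0283 RPKM.

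Both chains of the receptor for IL-13 were transcribed at every site. IL4R (ENSSSCG00000007817, chromosome 3, 19523564 to 19576544, minus strand, Sscrofa11.1) is the shared alpha chain of the IL-4 and IL-13 receptors. In pig 14 it was at 48.4 CPM (site 12d) and 44.8 CPM (12c) after injection and at 29.7 CPM (6b) and 30 CPM (7e) without. In pig 13 it was at 34.0 CPM (12c) and 40.1 CPM (12e) after injection and at 21.1 CPM (6b) and 57.9 CPM (7b) without. Injected sites were thus higher than both controls in pig 14, whereas in pig 13 they lay between the 2 controls. The group means were 41.8 ± 6.24 CPM injected and 34.7 ± 16.0 CPM control (SD, n = 4), and the log2 fold change was 0.27 ± 0.31 (SE, 95% confidence interval -0.46 to 1, adjusted p = 0.964).

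The IL4R result turned on the control from site 7b, which held the highest IL4R value of all 8 biopsies. Without it the log2 fold change was 0.71 ± 0.10 and IL4R was called higher at injected sites (1.63-fold, adjusted p = 0.0416 by edgeR, where its other alternatives gave 0.204 to 1), 1 of 8 members against 0.094% of the 20223 genes tested in that fit. That fit leaves pig 13 a single control, from site 6b, whose IL4R value is the lowest of the series, and it is read here because the biopsy stood apart. In pig 14 alone, which the biopsy does not enter, the log2 fold change was 0.65 ± 0.11 (95% confidence interval 0.39 to 0.91, adjusted p = 0.204). In pig 13 alone it was -0.09 ± 0.51. The difference between the 2 animals was -0.74 ± 0.60 (adjusted p = 0.782 for the interaction of pig and treatment). The lead of injected over both control sites in pig 14 was shared by IL31RA, STAT6 and IL25 (4 of 8 members) and by 20.5% of all genes tested.

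**Figure D3:**
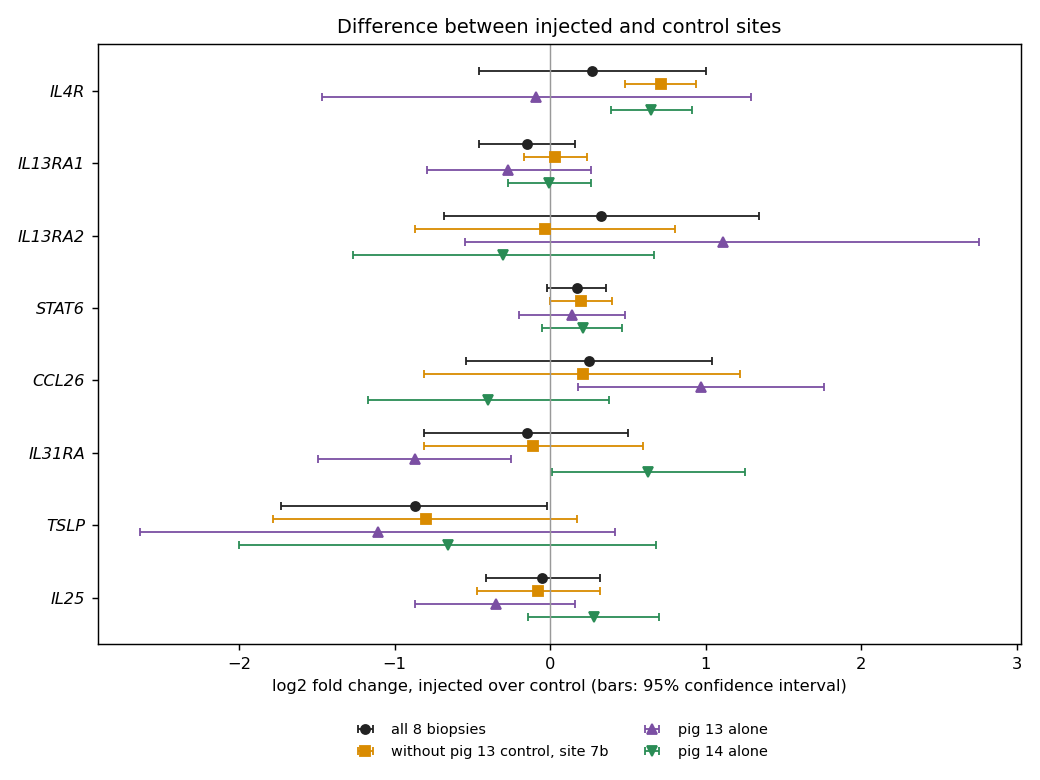
Log2 fold change of injected over control sites for the 8 tested genes, with 95% confidence intervals, from all 8 biopsies (black), without the pig 13 control from site 7b (orange) and in each pig alone (violet, green). The interval of IL4R spans 0 with all biopsies (-0.46 to 1) and lies above 0 without site 7b (0.48 to 0.94), and the IL31RA points of the 2 pigs lie on opposite sides of 0.

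IL13RA1 (ENSSSCG00000012633, chromosome X, 97300466 to 97369696, plus strand), the chain that completes the type II receptor with IL4R, varied little. It was at 107, 106, 120 and 105 CPM in injected sites (12c and 12e of pig 13, 12c and 12d of pig 14). In control sites it was at 98.8 CPM (6b) and 158 CPM (7b) in pig 13 and at 118 CPM (6b) and 111 CPM (7e) in pig 14. All values but that of site 7b lay between 98.8 and 120 CPM, and the groups overlapped. The log2 fold change was -0.15 ± 0.14 (SE), and 0.03 ± 0.09 without site 7b. The level of IL4R per length was 0.264 to 0.381 of that of IL13RA1 at injected and 0.178 to 0.303 at control sites. Against IL2RG, its partner on blood cells, the IL4R level per length was 1.56 to 3.99 times as high at injected and 0.971 to 3.55 times as high at control sites.

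IL13RA2 (ENSSSCG00000012594, chromosome X, 94402675 to 94439060, minus strand), a decoy chain that binds IL-13 and has little signalling of its own, was low. Counts were 39 (12c) and 16 (12e) at injected and 19 (6b) and 6 (7b) at control sites of pig 13, and 27 (12c), 34 (12d), 26 (6b) and 48 (7e) in pig 14. In CPM the injected sites had 0.932 ± 0.282 and the controls 0.856 ± 0.653 (SD, n = 4), and the log2 fold change was 0.33 ± 0.46 (95% confidence interval -0.68 to 1.34). It was -0.03 ± 0.38 without site 7b and -0.02 ± 0.46 without the injected site 12c of pig 13. The signalling chain outweighed the decoy at every site: IL13RA1 was 31.3 to 70.9 times the IL13RA2 level per length at injected sites and 22.9 to 60.3 times at 3 of the control sites. Site 7b, with the most IL13RA1 and the least IL13RA2, had 339 times. Within pigs the log2 levels of the 2 genes correlated at -0.75 over the 8 biopsies, which share their libraries. Other pairs of members were as far below 0, with -0.78 for TSLP and STAT6 and -0.75 for CCL26 and IL25.

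Site 7b was also the extreme of the keratinocyte and fibroblast sums, as the plot of receptor genes beside markers shows. Its basal keratinocyte sum was 21043 CPM, against 6758 to 15632 CPM elsewhere, and its fibroblast sum 19082 CPM, against 76704 to 192066 CPM. Of the basal keratinocyte list, KRT15 was at 279 CPM at site 7b, against 162 to 379 CPM elsewhere. Of the differentiated list, CDSN was at 487 CPM there, against 282 to 590 CPM elsewhere. The other genes of both keratinocyte lists were highest at site 7b. Genes of the fibroblast list did not all follow their sum either. COL1A1, COL1A2, COL3A1 and DCN were lowest at site 7b. PDGFRA was highest there (124 CPM, against 64.5 to 107 CPM elsewhere), and LUM was at 205 CPM, against 84.3 to 514 CPM elsewhere. All 6 genes of the basal keratinocyte list and of the fibroblast list were in the table. In pig 14, where IL4R was higher after injection, the basal keratinocyte sum was 13358 (12c) and 11621 CPM (12d) at injected and 7389 (6b) and 6758 CPM (7e) at control sites. The differentiated keratinocyte sum did not follow that order in pig 14. It was 10040 (12c) and 5885 CPM (12d) at injected and 12031 (6b) and 9311 CPM (7e) at control sites. The part of these markers in the IL4R, IL13RA1 and IL13RA2 values was not tested.

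**Figure D4:**
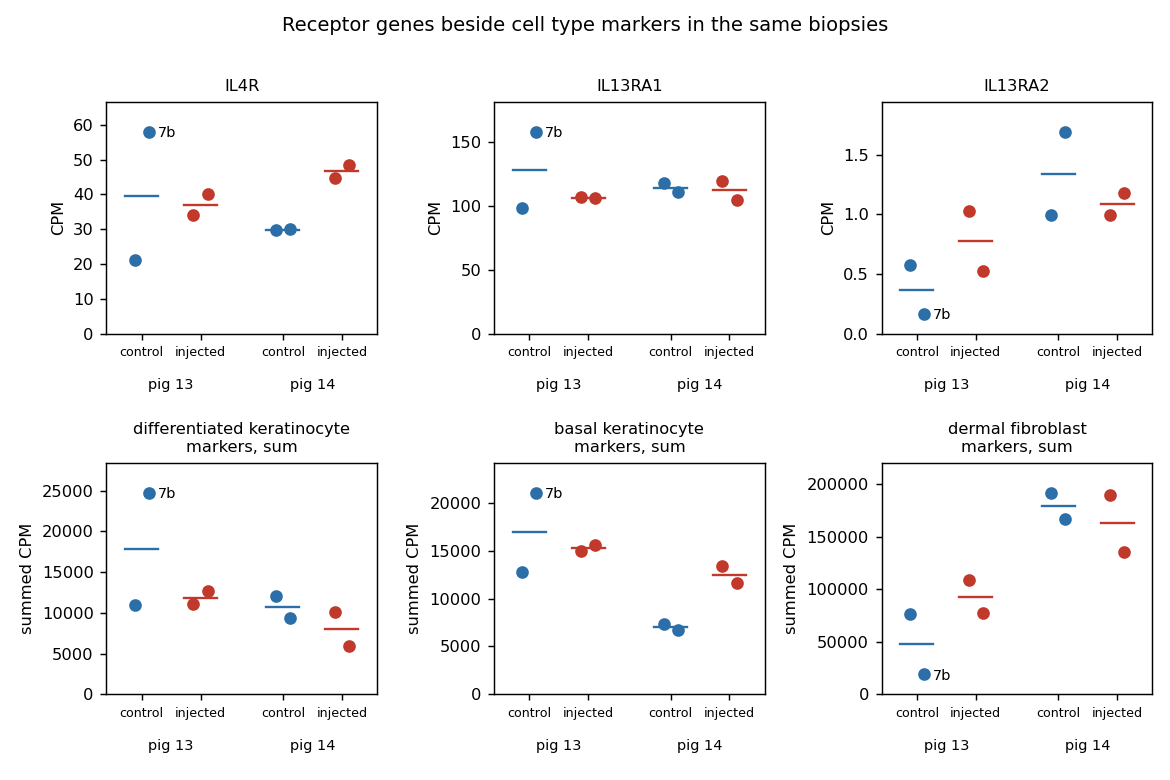
CPM of IL4R, IL13RA1 and IL13RA2 (upper row) and summed CPM of 3 marker lists (lower row) in each biopsy, controls in blue and injected sites in red, with the mean of each pair of sites as a line. The pig 13 control from site 7b is the highest point for IL4R, IL13RA1 and both keratinocyte sums and the lowest for IL13RA2 and the fibroblast sum.

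STAT6 (ENSSSCG00000040435, chromosome 5, 22406364 to 22421990, minus strand), the transcription factor of both receptors, was the steadiest member, with a coefficient of variation of 9.56% over the 8 biopsies. In pig 13 it was at 167 (12c) and 168 CPM (12e) at injected and 145 (6b) and 159 CPM (7b) at control sites. In pig 14 it was at 158 (12c) and 145 CPM (12d) at injected and 129 (6b) and 135 CPM (7e) at control sites. Injected sites were above both controls in each pig by a small margin. The log2 fold change of 0.17 ± 0.08 (95% confidence interval -0.02 to 0.36) did not pass the test (adjusted p = 0.964), and was 0.14 ± 0.15 in pig 13 and 0.21 ± 0.11 in pig 14. An order kept in both pigs was found for 2 of 8 members, STAT6 and TSLP, and for 5.95% of all genes tested. For TSLP in pig 14 it rests on 0.449 CPM (12d) against 0.459 CPM (7e), from 13 counts at each site. Of the exon bases of STAT6, 56 (1.35%) overlap exons of NAB2 on the other strand.

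CCL26 (ENSSSCG00000039874, chromosome 3, 10381296 to 10385796, plus strand), eotaxin-3, is a chemokine for eosinophils that STAT6 induces. Its group means coincided at 6.23 CPM, with an SD of 2.59 at injected and 4.31 at control sites (n = 4). In pig 13 injected sites had 4.32 (12c) and 5.65 CPM (12e) and controls 1.87 (6b) and 3.22 CPM (7b). In pig 14 they had 4.92 (12c) and 10 CPM (12d) and controls 10.5 (6b) and 9.39 CPM (7e). The log2 fold change was 0.97 ± 0.34 in pig 13 alone and -0.40 ± 0.33 in pig 14 alone, and neither passed (adjusted p = 0.679 and 0.747 by edgeR). The difference between the pigs was 1.37 ± 0.51 (adjusted p = 0.546 for the interaction by edgeR).

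For CCL26 the estimated difference between the animals was larger than that of injected over control sites (0.25 ± 0.35 over all biopsies). The 2 differences were not compared by a test. Over both treatments pig 13 was lower than pig 14 by a log2 value of -1.26 ± 0.35 (adjusted p = 0.0539 by edgeR, a comparison added after the data were seen). That misses the threshold, and 0 of 8 members passed it, against 10.7% of all genes. DESeq2 called CCL26 (adjusted p = 0.0017), and edgeR called it without the injected site 12c of pig 14 (-1.57 ± 0.26, adjusted p = 0.0066) or 12e of pig 13 (-1.46 ± 0.35, adjusted p = 0.0492). IL13RA2 (-1.13 ± 0.46) and TSLP (-0.91 ± 0.39) were also lower in pig 13 without passing (adjusted p = 0.146 and 0.164). IL4R had 0.04 ± 0.31 here, and was called lower in pig 13 only without site 7b (-0.39 ± 0.10, adjusted p = 0.0365 by edgeR). The share of all genes called between the pigs by DESeq2 or with a biopsy left out is not given here. The CCL26 and IL4R calls of those fits therefore have no background beside them. The T cell marker sum was also lower in pig 13 at every site, as given above. So was the dermal fibroblast sum (19082 to 108740 CPM, against 136102 to 192066 CPM in pig 14). Of that list COL1A1, COL1A2, COL3A1 and LUM were lower at every pig 13 site. DCN (877 to 2600 CPM in pig 13, 1772 to 2463 CPM in pig 14) and PDGFRA (64.5 to 124 and 92.6 to 107 CPM) overlapped between the pigs. The part of these markers in the values of the members was not tested. With 1 animal on each side this comparison covers these 2 pigs only.

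IL31RA (ENSSSCG00000016915, chromosome 16, 35012094 to 35071384, plus strand), the specific chain of the receptor for the itch cytokine IL-31, went opposite ways in the 2 animals. Pig 13 had 2.73 (12c) and 3.25 CPM (12e) at injected sites and 6.10 (6b) and 4.89 CPM (7b) at controls. Pig 14 had 3.38 (12c) and 3.98 CPM (12d) at injected sites and 2.52 (6b) and 2.26 CPM (7e) at controls. Within each pig the groups did not overlap, and the injected sites of both pigs (2.73 to 3.98 CPM) lay between the controls of pig 14 and those of pig 13. The log2 fold change was -0.87 ± 0.26 in pig 13 and 0.63 ± 0.27 in pig 14, and -0.15 ± 0.30 over both. The interaction was -1.50 ± 0.36 (95% confidence interval -2.31 to -0.69) and did not pass over all genes (adjusted p = 0.439 by edgeR and 0.0936 by DESeq2). With edgeR 0% of genes passed the interaction test at the adjusted threshold. At an unadjusted p under 0.05 there were 3 of 8 members, IL31RA, CCL26 and IL25, against 8.22% of all genes.

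OSMR, which joins IL31RA to form the IL-31 receptor and also serves oncostatin M, was far more abundant. Its level per length was 19.4 to 28.1 times that of IL31RA at injected and 5.62 to 24.1 times at control sites. OSMR was at 45.6 (12c), 63.3 (12e), 52.8 (12c) and 53.5 CPM (12d) at injected sites of pig 13 and pig 14. At control sites it was at 23.8 (6b) and 55.1 CPM (7b) in pig 13 and 36.7 (6b) and 37.8 CPM (7e) in pig 14. As for IL4R, the controls other than site 7b were the lowest, and the log2 fold change was 0.49 ± 0.23 over all biopsies (adjusted p = 0.964) and 0.78 ± 0.16 without site 7b (adjusted p = 0.308). IL31 itself had 7 to 23 counts at injected and 8 to 16 at control sites (0.25 ± 0.43).

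TSLP (ENSSSCG00000014198, chromosome 2, 115832601 to 115837541, plus strand), the epithelial cytokine, was read from very few counts. Pig 13 had 8 (12c) and 5 (12e) counts at injected sites and 13 (6b) and 16 (7b) at controls. Pig 14 had 11 (12c) and 13 (12d) at injected sites and 24 (6b) and 13 (7e) at controls. In CPM these were 0.164 to 0.449 at injected and 0.393 to 0.915 at control sites, and the groups overlap across pigs. Injected sites were below both controls of their pig in each animal. In pig 14 sites 12d and 7e had the same count of 13, and their order (0.449 and 0.459 CPM) comes only from library scaling. The group means were 0.307 ± 0.140 and 0.551 ± 0.245 CPM (SD, n = 4). The log2 fold change of -0.87 ± 0.39 (95% confidence interval -1.73 to -0.02) did not pass over all genes (adjusted p = 0.964), and was -1.11 ± 0.65 in pig 13 and -0.66 ± 0.58 in pig 14. Of the 943 exon bases of TSLP, 152 (16.1%) are also exon of WDR36 on the same strand. The sources used here do not say how reads there were assigned.

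The TSLP receptor chain CRLF2 (ENSSSCG00000039633, on an unplaced scaffold) was too low for the filter of the main test. It had 6 (12c) and 2 (12e) counts at injected and 1 (6b) and 3 (7b) at control sites of pig 13. In pig 14 it had 0 (12c) and 7 (12d) at injected and 3 (6b) and 0 (7e) at control sites. If each count were a separate molecule, a count of 0 would allow up to 0.110 CPM at site 12c and 0.106 CPM at site 7e of pig 14 (3 counts per library, counting error only), and a difference between groups was not detectable at this depth. In the fit without a filter CRLF2 had a log2 fold change of 1.02 ± 1.16 (adjusted p = 0.99 by edgeR). The second row with the CRLF2 description (ENSSSCG00000034469, chromosome Y, 4968583 to 4992297) had 6 counts at site 12d of pig 14 and 0 to 2 elsewhere. Reads of near-identical copies could be split between these rows or left out, so the CRLF2 level is uncertain. IL7R, the partner of CRLF2, was at 0.954 to 2.42 CPM at injected and 0.725 to 2.4 CPM at control sites (log2 fold change -0.08 ± 0.32).

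IL25 (ENSSSCG00000028427, chromosome 7, 75710996 to 75721826, minus strand), a cytokine of the IL-17 family that promotes type 2 responses, was read at 214 to 409 counts in every biopsy. Pig 13 had 8.14 (12c) and 8.67 CPM (12e) at injected sites and 12.4 (6b) and 9.17 CPM (7b) at controls. Pig 14 had 9.44 (12c) and 9.54 CPM (12d) at injected sites and 8.16 (6b) and 7.55 CPM (7e) at controls. As for IL31RA, injected sites were below both controls in pig 13 and above both in pig 14, a pattern of 2 of 8 members and of 7.47% of all genes tested. The log2 fold change was -0.05 ± 0.16 over both pigs (adjusted p = 0.984), -0.35 ± 0.22 in pig 13 and 0.28 ± 0.18 in pig 14, and the interaction was -0.63 ± 0.28 (adjusted p = 0.6). After each pig's mean was removed, log2 levels of IL25 and IL31RA correlated at 0.92 over the 8 biopsies, the highest value among pairs of tested members. IL17RB, the IL-25 receptor chain, was at 4.29 to 6.25 CPM at injected and 4.83 to 6.71 CPM at control sites (-0.16 ± 0.19), and its partner IL17RA was 5.56 to 11.7 times as high per length.

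The gene models of several members differ between annotations. Of the 945 exon bases of IL25 in the deposited files, 384 (40.6%) lie outside the span that RefSeq gives the gene in Sscrofa11.1 (75710453 to 75717688). The same holds for 2969 of 4241 bases (70%) of IL13RA1, 1383 of 5114 (27%) of IL4R and 129 of 638 (20.2%) of CCL26, and for none of TSLP, IL13RA2 and STAT6. The files give no counts per exon, so how much of each value comes from these bases was not tested. The levels per length, their order and tiers, and the ratios between receptor chains depend on the exon lengths of the deposited gene models.

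Other genes of the pathway were taken from a list of 41 symbols, of which 39 had a gene and 35 could be tested. None of the 35 was called in either direction over all 8 biopsies, 17 were above and 18 below 0, and their median log2 fold change was -0.02, beside -0.01 for all genes. At an unadjusted p under 0.05 there were 2 of the 35 genes, against 4.54% of all genes. They were SOCS3 and CISH, known as feedback inhibitors of cytokine receptors. SOCS3 was at 36.8 to 47.2 CPM at injected and 3.59 to 29.0 CPM at control sites, where 29.0 was again site 7b, with a log2 fold change of 1.86 ± 0.63 (adjusted p = 0.964). Without site 7b it had 2.83 ± 0.20 (adjusted p = 0.001 by edgeR). It was the only call of the list in that fit (1 of 36 tested genes, against 0.094% of all genes). CISH was at 25.6 to 32.9 and 21.8 to 30.9 CPM (0.23 ± 0.10). OSMR and IL9R (0.18 ± 0.14) had the smallest p among partner chains, and STAT5A (0.12 ± 0.10) and TYK2 (-0.08 ± 0.10) among kinases and transcription factors. Apart from SOCS3, the tested genes lay between -1.72 ± 1.37 (ARG1) and 0.76 ± 0.62 (CCL17), both named after their values were seen. CCL17 had only 0 to 23 counts per biopsy. The ARG1 value rested on site 7b, with 37.9 CPM against 0.76 to 2.13 CPM in the other 7 biopsies, and was 0.62 ± 0.35 without it. Without that site 25 of 36 tested genes of the list were above and 11 below 0, with a median of 0.11.

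**Figure D5:**
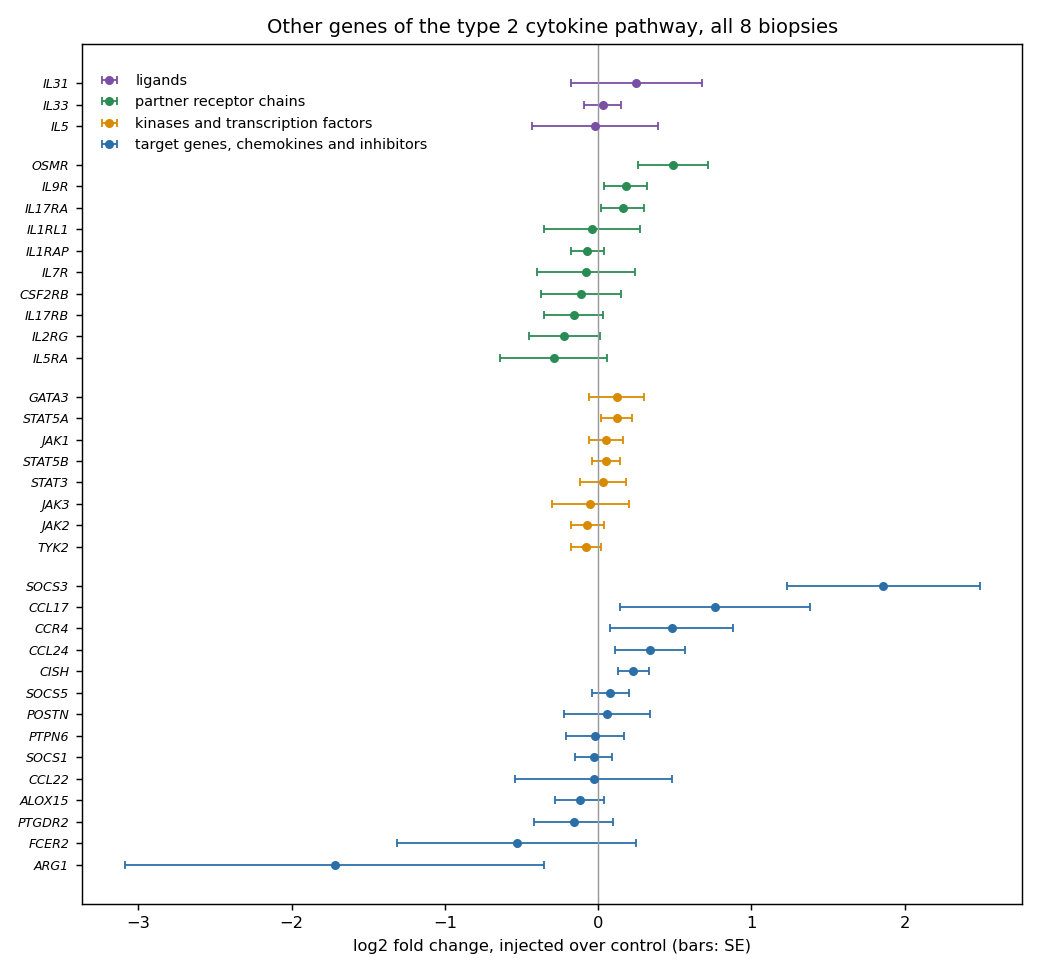
Log2 fold change of injected over control sites with its SE for the 35 tested genes of the pathway list, by role: ligands (violet), partner receptor chains (green), kinases and transcription factors (orange) and target genes with chemokines and inhibitors (blue). Most points lie near 0, SOCS3 is the highest at 1.86 and ARG1 the lowest at -1.72, a value that is 0.62 without site 7b.

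The type 2 cytokines that would engage these receptors were at the edge of detection. IL4, the main ligand of IL4R, had 0 to 2 counts at injected and 0 to 4 at control sites. IL13 had 6 (12c) and 6 (12e) counts at injected sites of pig 13 and 4 (12c) and 4 (12d) in pig 14, and 0 (6b), 2 (7b), 2 (6b) and 0 (7e) at controls. These were only 20 counts in all at injected sites against 4 at controls, and the gene did not enter the main test. In the fit without a filter on low counts IL13 had 2.18 ± 1.10 (adjusted p = 0.99 by edgeR). IL33, an epithelial alarmin, was by contrast at 35.3 to 43.2 CPM at injected and 31.4 to 48.5 CPM at control sites (0.03 ± 0.12).

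Over all genes, low counts were more often even than odd, a pattern looked for after the values were seen. Among genes with 1 to 10 counts in a biopsy, 65.7% to 69.8% had an even count, against 49.8% to 50.7% of genes with 100 to 2000 counts, and 1477 to 1717 genes had 2 counts where 618 to 715 had 1. IL4, IL9 and IL13 had only even counts, whereas TSLP and CRLF2 had odd and even ones, as given above. The cause was not tested, so low counts are not taken as separate molecules here.

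For the 6 tested members with a mean of at least 1 CPM, which leaves out TSLP, IL13RA2 and CRLF2, the most similar genes were named by the highest Pearson r of log2(CPM + 0.5) over the 8 biopsies after each pig's mean was removed, among 13578 genes with a symbol and a mean of at least 1 CPM. For IL4R they were LTBR and PDPN (both 0.99) and CEMIP2 (0.98), and for IL13RA1 they were PPP4R1, KLK11 and ARG1 (all 0.99). For STAT6 they were CISH (0.99), DCAF1 (0.98) and EFTUD2 (0.98), and for CCL26 WBP1L (0.995), ACOT8 (0.99) and TBC1D19 (0.97). For IL31RA they were SPOCK2 (0.98), CDH24 (0.97) and TMPRSS2 (0.97), and for IL25 BIN3 (0.99), GLI3 (0.98) and ZNF385C (0.96). Site 7b, far the highest for ARG1, was also the highest for IL13RA1. These are the highest of many values over 8 biopsies that share libraries, and carry no test.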

How the data were processed

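RNA-seq of 8 whole skin biopsies was analysed. RNA came from a lipid tissue kit and went through RiboZero Gold, per the labels' protocols. STAR 2.5.1a, featureCounts 1.4.6-p5 (Subread), bcl2fastq and the build Sscrofa11.1 are named in the submitters' processing notes. Strand setting and handling of mates are not given in the sources used here. The authors deposited a count per Ensembl gene in whole numbers, and for each biopsy also CPM (scaled to assigned counts) and RPKM (CPM per kilobase), per the file headers. These 2 columns were only checked against the counts. The single file of the pig 13 control from site 7b holds 607 complete genes, so all biopsies were read from the series table, with repeated rows kept once.

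Genes were kept by filterByExpr (minimum count 10) and tested with edgeR 4.0.16 (TMM, quasi-likelihood F test, robust estimation, pig as a block, R 4.3.3), with Benjamini-Hochberg adjustment over all 19862 genes. SE is the log2 fold change over the root of F. DESeq2 1.42.0, RLE scaling, no filter, no pig block, no robust estimation, each biopsy left out and each pig alone were alternatives. The procedure was tested on simulated data, with an outcome not given here. Only genes above the mean CPM of TSLP, IL13RA2 and CRLF2 were changed there, and only by 2-fold or more. That test does not cover these members or smaller changes. CPM here are TMM-scaled, and RPKM use the files' exon length. Members, gene lists and naming rules (all members, their partner chains, low ligands, every pathway gene called, the 2 genes of smallest p per sub-list) were chosen with earlier results of these data known. Of 65 marker symbols 56 had a gene. No list of markers had a called gene.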

Additional observations from a re-analysis of the deposited data

Results flagged for a closer look

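In groups of 4 biopsies, a value was singled out when its gap to the nearest other value took more of the group's range than Dixon's 95% critical value. Among 40 groups of 20 genes this marked 2, and chance marks about 1 in 20 groups. TSLP was at 0.915 CPM in the pig 14 control from site 6b, against 0.393 to 0.459 CPM in the other controls, from 24 counts. IL13RA1 was at 120 CPM in the pig 14 injected site 12c, against 105 to 107 CPM in the other injected sites, a gap of 0.915 of a narrow range.

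For 2 genes every injected site lay below both controls in pig 13 and above both in pig 14. The response of pig 13 minus that of pig 14 was -1.50 ± 0.36 (log2, SE) for IL31RA and -0.63 ± 0.28 for IL25, without passing edgeR's test of the interaction, where adjusted p = 0.439 and 0.6, respectively.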

How the results depend on the processing

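Over all genes, 7 were called, 58 by DESeq2, 30 in pig 13 alone, 17 in pig 14 alone and 3 to 19 with a biopsy left out. Members called were 0, and 1 (IL4R) without the pig 13 control from site 7b (range 0 to 1). Pathway genes called were 0, and 1 (SOCS3) without that site (0 to 1) and in pig 14 alone. Between pigs 0 members were called, 1 by DESeq2 (CCL26) and 0 to 1 with a biopsy left out, with no share of all genes given for those alternatives. TSLP and STAT6 kept their sign in all 15 alternatives (-1.11 to -0.66 and 0.14 to 0.21), as did IL2RG, OSMR, IL17RB, IL9R, SOCS3 and CISH. Signs turned in pig 13 alone for IL4R (-0.09), IL7R (0.09), IL31 (-0.30) and IL33 (-0.01). In pig 14 alone they turned for IL13RA2 (-0.30), IL31RA (0.63), CCL26 (-0.40), IL25 (0.28), STAT5A (-0.03) and TYK2 (0.06). With single biopsies left out, values ran from 0.10 to 0.71 for IL4R, -0.25 to 0.03 for IL13RA1, -0.03 to 0.68 for IL13RA2, -0.35 to 0.08 for IL31RA, -0.03 to 0.58 for CCL26, -0.13 to 0.11 for IL25, -0.28 to 0.12 for IL7R, -0.02 to 0.49 for IL31 and -0.06 to 0.15 for IL33, and the cause was not tested. Without the pig as a block no member was called and no member's sign turned. Depth limits TSLP, CRLF2, IL4, IL9, IL13, IL31, CCL17 and FCER2, with 24 counts or fewer per biopsy.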
